A study of Mus musculus with 6 samples.

Results

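The genes described here are the nuclear-encoded genes of oxidative phosphorylation, ordered by the complex whose protein they encode. Members were taken from the deposited gene table by symbol: the Nduf genes whose next letter is a, b, c, s or v, the genes Sdha to Sdhd, and all symbols starting with Uqcr, Cox4 to Cox8 or Atp5. The patterns matched 110 of the 29872 rows, and 14 rows with names ending in -ps, a mark for pseudogenes, were left out, which left 96 members. Of these, 39 were counted with complex I, 4 with complex II, 8 with complex III, 18 with complex IV and 17 with complex V. The other 10 are assembly factors or accessory genes rather than subunits. The annotation calls 4 members processed pseudogenes, Ndufa11b, Ndufb4c and Ndufs6b of the complex I set and Cox6c2 of the complex IV set. They stay in the counts by complex below.

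Mitochondria pass electrons from NADH and succinate through complexes I and II to ubiquinone, then through complex III to cytochrome c and through complex IV to oxygen. Complexes I, III and IV pump protons across the inner membrane, and complex V, the ATP synthase, lets them flow back and makes ATP. Most subunits are encoded in the nucleus and a few in mitochondrial DNA, and complexes I, III, IV and V are built from both. Blood stem cells at rest are known for relying little on this pathway and for engaging it when they divide or differentiate.

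The study set leukaemic cells of chronic myeloid leukaemia (CML) beside normal mouse stem and progenitor cells. The 6 libraries were 3 labelled CML and 3 labelled WT, all from untreated bone marrow on the C57BL/6 background, expanded ex vivo and sorted as Lin- Sca1+ cKit+ CD150+. Both groups share the expansion and the gate, and the labels give neither the CML model or its transgene nor whether the sort came before the expansion. Nothing in the labels ties a library to its own animal or culture, so the p-values measure how these libraries vary, and that variation may be technical.

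Rounded counts summed to between 13323469 and 15433481 in the CML libraries and between 15930585 and 17926847 in the WT libraries, and the members held 0.533% to 0.593% of the counts in CML and 0.577% to 0.672% in WT. Levels are given as CPM, counts scaled to a common library size with edgeR's TMM factors, and log2 fold changes, CML over WT, are given ± SE (standard error). The gate genes Kit and Ly6a were not called different. Ly6a, which encodes Sca1, was nevertheless at 81.7, 172 and 65.3 CPM in CML against 40.0, 52.4 and 64.2 CPM in WT. Every CML library was above every WT library, with a log2 fold change of 1.03 ± 0.42, adjusted p = 0.173 by edgeR. Slamf1, which encodes CD150, averaged 14.2 ± 4.35 CPM over the CML and 24.7 ± 6.61 CPM over the WT libraries (SD, n = 3). It was called lower. Markers of other blood cells moved with the groups. The summed level of 9 mast cell and basophil genes, 5 of them called higher, was 2057, 7155 and 4536 CPM in CML against 322, 161 and 276 CPM in WT. That of 8 monocyte and macrophage genes, 5 called higher, was 358, 423 and 370.0 CPM in CML against 235, 236 and 292 CPM in WT, and that of 5 megakaryocyte genes, 2 called lower, was 116, 156 and 179 CPM in CML against 261, 275 and 287 CPM in WT. None of 7 neutrophil genes was called, Camp among them at 0 in WT. Of 6 erythroid genes 1 was called higher and 1 lower, with sums of 8.79 to 32.5 CPM in CML and 51.0 to 60.5 CPM in WT, and none of 5 lymphoid genes was called, with sums of 31.2 to 53.2 CPM in CML and 49.9 to 66.2 CPM in WT. In bulk samples fewer cells of a type and less RNA per cell cannot be told apart, and the part of these marker genes in the results below was not tested.

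Oxidative phosphorylation genes were called lower in CML or not called, and none was called higher. With edgeR's quasi-likelihood test and Benjamini-Hochberg adjustment over 16221 genes, 12 of the 91 members with enough counts to be tested were lower in CML (13.2%), against 7.2% of all genes tested. No member was called higher, against 10.2% of all genes tested. The called members fell to between 0.532 and 0.715 of their WT level. They were Atp5g3, Atp5l, Atp5j, Atp5mpl and Atp5md of complex V, Cox7b, Ndufa4 and Cox6c of complex IV, Ndufab1 and Ndufb6 of complex I, Uqcrb of complex III and the assembly factor Ndufaf4. The number depended on the libraries: 7 were called without CML replicate 2, 6 without CML replicate 3, 7 without WT replicate 1 and 3 without WT replicate 2, against 18 without WT replicate 3. The share of all tested genes called lower moved along with it, to 4.06%, 3.44%, 4.08%, 2.71% and 12.5% in these fits.

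**Figure D1:**
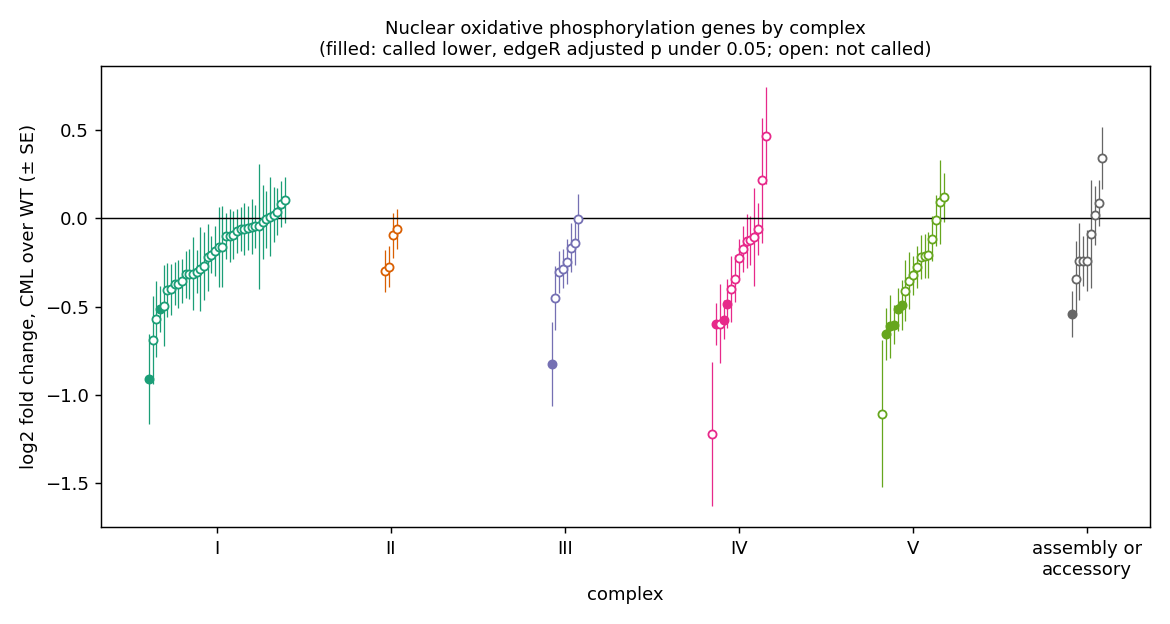
Log2 fold change of each of the 91 tested members, CML over WT, with its SE as a bar, ordered by size within each complex along the horizontal axis. Filled points are the 12 members called lower at an adjusted p under 0.05 and open points were not called; 79 points lie below 0 and 12 above.

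Most members that missed the threshold also had negative values. The estimated log2 fold change was below 0 for 79 of the 91 tested members (86.8%), with a median of -0.23, against 50.4% and a median of -0.00 over all genes tested. For 39 members (42.9%) every CML library was below every WT library, against 16.5% of all genes tested, and for 0 members every CML library was above. The direction of the median held when the libraries were scaled to their raw totals, at -0.13 with 65 members below 0 and 8 called lower, although that scaling moved the calls over all genes to 2065 higher and 732 lower, against 1652 higher and 1168 lower with TMM. The median over all genes tested was then 0.09. The medians of complexes I, II, III and IV and of the assembly or accessory genes were -0.08, -0.09, -0.17, -0.13 and -0.14 with that scaling. That of complex V moved less in proportion than these. Summed over all members with TMM scaling, the CML libraries averaged 5365 ± 326 CPM and the WT libraries 6365 ± 267 CPM (SD, n = 3), a ratio of 0.843. The 2 groups of libraries did not overlap in this sum. As shares of the raw totals they did overlap, with CML replicate 1 at 0.593% and WT replicate 1 at 0.577%.

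The 3 WT libraries were not alike. The median log2 ratio of the members to their WT mean was -0.13, -0.30 and -0.31 in CML replicates 1, 2 and 3, against -0.07, -0.05 and 0.11 in WT replicates 1, 2 and 3, so WT replicate 3 was the highest and CML replicate 1 lay nearest to WT. WT replicate 3 also stood apart from the other WT libraries in its relation to base composition and transcript length. Over all tested genes, the Spearman coefficient between a library's ratio to the mean and transcript GC content was 0.176, 0.191 and 0.270 in the CML libraries and 0.285 in WT replicate 3, against -0.461 and -0.365 in WT replicates 1 and 2. The same coefficient with transcript length was -0.141, 0.139 and 0.134 in CML replicates 1, 2 and 3. In WT replicates 1, 2 and 3 it was 0.041, -0.030 and -0.228. Without WT replicate 3 the median of the members was -0.20, with 62 of them below 0.

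**Figure D2:**
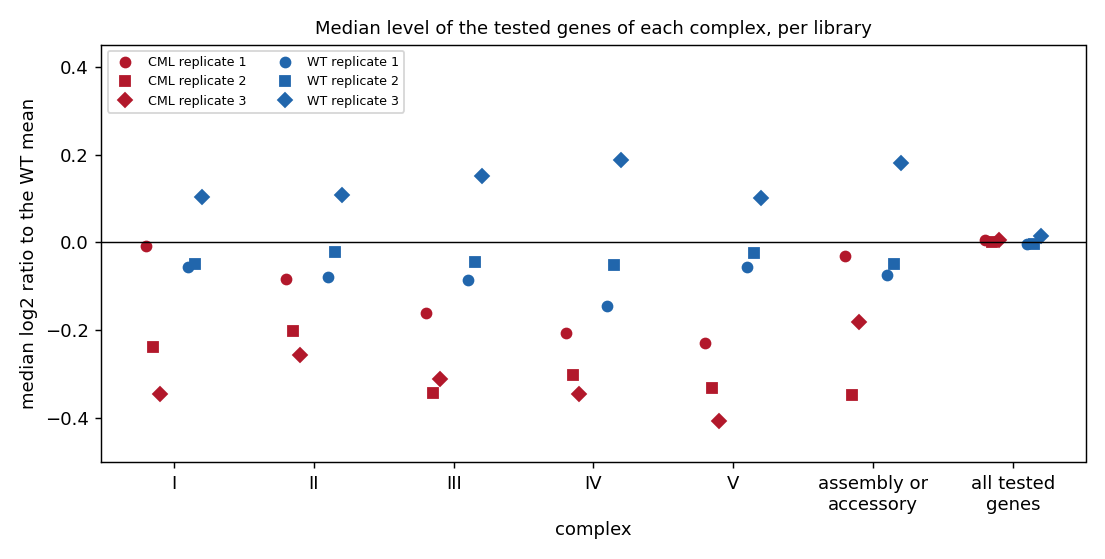
Median log2 ratio of the tested genes of each complex to their WT mean, on the vertical axis, for each of the 3 CML (red) and 3 WT (blue) libraries, with all tested genes at the right. The CML libraries lie below the WT libraries for complexes II to V, complex I and the assembly or accessory genes overlap, and WT replicate 3 is the highest library in every complex.

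The sequences just upstream of 5 of these genes are shown because they set members called lower in every fit tried beside members with the highest adjusted p. Cox7b, Ndufa4 and Atp5g3 were called lower in all 16 alternative fits, and Cox6b1 and Atp5h had the highest adjusted p among the protein-coding members of complexes IV and V with a window. Each window holds 300 bases around the gene start annotated by RefSeq on GRCm38.p6, read 5′ to 3′ on the gene's strand. Capitals mark matches to the core letters bound by GABP and other ETS factors (CCGGAAG) or to those bound by NRF1 (GCATGCGC), a pair of textbook activators of these genes, both searched on both strands.
Cox7b, chrX:106015450-106015749, plus strand: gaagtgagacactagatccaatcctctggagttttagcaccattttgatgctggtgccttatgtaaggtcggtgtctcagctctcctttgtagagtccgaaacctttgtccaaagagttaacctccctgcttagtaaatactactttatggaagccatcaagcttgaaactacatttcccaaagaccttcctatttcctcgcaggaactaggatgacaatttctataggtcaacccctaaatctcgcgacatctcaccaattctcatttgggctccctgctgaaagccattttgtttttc
Ndufa4, chr6:11907401-11907700, minus strand: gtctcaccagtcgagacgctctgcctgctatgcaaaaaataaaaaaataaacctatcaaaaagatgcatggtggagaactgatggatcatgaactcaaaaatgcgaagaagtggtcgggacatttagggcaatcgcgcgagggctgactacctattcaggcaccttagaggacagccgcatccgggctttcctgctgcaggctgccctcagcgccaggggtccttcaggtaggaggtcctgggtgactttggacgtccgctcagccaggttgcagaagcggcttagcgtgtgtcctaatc
Atp5g3, chr2:73911277-73911576, minus strand: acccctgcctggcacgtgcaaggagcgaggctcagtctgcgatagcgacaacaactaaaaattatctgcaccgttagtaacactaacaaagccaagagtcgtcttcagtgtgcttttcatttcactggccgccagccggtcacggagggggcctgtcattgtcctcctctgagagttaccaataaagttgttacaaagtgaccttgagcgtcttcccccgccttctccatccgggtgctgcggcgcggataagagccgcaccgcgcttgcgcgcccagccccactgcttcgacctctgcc
Cox6b1, chr7:30626065-30626364, minus strand: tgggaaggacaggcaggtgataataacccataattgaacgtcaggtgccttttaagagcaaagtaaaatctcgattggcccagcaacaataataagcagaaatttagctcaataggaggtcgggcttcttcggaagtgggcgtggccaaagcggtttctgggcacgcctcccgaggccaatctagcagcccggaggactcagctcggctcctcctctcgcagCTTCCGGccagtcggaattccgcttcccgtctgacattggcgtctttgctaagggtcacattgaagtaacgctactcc
Atp5h, chr11:115419870-115420169, minus strand: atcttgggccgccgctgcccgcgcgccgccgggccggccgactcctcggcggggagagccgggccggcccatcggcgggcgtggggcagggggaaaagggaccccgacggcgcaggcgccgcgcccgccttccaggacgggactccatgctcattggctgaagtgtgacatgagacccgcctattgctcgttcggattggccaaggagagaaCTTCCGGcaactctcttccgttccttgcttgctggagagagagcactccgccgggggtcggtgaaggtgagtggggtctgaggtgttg

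The first 3 windows hold neither run of letters, and the last 2 each hold 1 ETS match on the reverse strand and no NRF1 match. A window was given for 76 of the 96 members. The NRF1 letters were in 12 of these (15.8%), against 5.99% of the 10233 tested genes with a window, and the ETS letters were in 19 (25%), against 20.3%. Among the called members with a window, 5 of 9 held either run, and among the tested members that were not called, 21 of 64 did. A match is a description of these letters, and the absence of one says nothing about the factors.

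Complex I takes electrons from NADH and is the largest of the 5 complexes. Of its 38 tested members 2 were lower in CML (5.26%), which is near the 7.2% of all genes tested. Without CML replicate 1 the number was 8 and without WT replicate 3 it was 6, against 1 without CML replicate 2 or WT replicate 1 and 0 without CML replicate 3 or WT replicate 2. The median log2 fold change was -0.17 and values ran from -0.91 to 0.10. For 12 members (31.6%) every CML library was below every WT library, against 16.5% of all genes tested. Without CML replicate 3 the median was -0.11. Ndufb6, an accessory subunit of the membrane arm (chr4:40270591-40279421, protein-coding), was at 27.1, 20.7 and 15.8 CPM in CML against 49.8, 42.6 and 27.3 CPM in WT. All CML libraries were below all WT libraries, but CML replicate 1 and WT replicate 3 nearly met. The log2 fold change was -0.91 ± 0.25, adjusted p = 0.0399 by edgeR, and the call was lost in 6 of 16 alternatives, among them the removal of CML replicate 2 or 3 or of WT replicate 1 or 2 (highest adjusted p = 0.142).

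Ndufab1, the mitochondrial acyl carrier protein, which is also a complex I subunit (chr7:122085403-122101886, protein-coding), was at 16.8, 16.6 and 17.5 CPM in CML against 23.5, 25.6 and 23.5 CPM in WT. The libraries of each group lay close together and the groups were well apart. The change was -0.52 ± 0.13, adjusted p = 0.0162, and the call was lost in 5 of 16 alternatives, among them the scaling to raw totals and the removal of CML replicate 2, CML replicate 3 or WT replicate 2. Ndufb5, an accessory subunit of the membrane arm, had the highest level per kilobase of transcript in the complex, 85.2 ± 10.7 CPM per kb in CML libraries and 110.2 ± 7.49 CPM per kb in WT libraries, and just missed the threshold (log2 fold change -0.37 ± 0.12, adjusted p = 0.0523). Among the core subunits, Ndufs1, Ndufs3, Ndufs7, Ndufs8, Ndufv1 and Ndufv2, named after their values were seen, were not called and had log2 fold changes of -0.21, -0.07, -0.30, 0.02, -0.10 and -0.32.

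Complex II, succinate dehydrogenase, is also an enzyme of the citric acid cycle and has no mitochondrially encoded subunit. None of its 4 members was called, although all 4 estimates were negative, with a median of -0.19, and Sdha was called without WT replicate 3. Sdha, the flavoprotein subunit that oxidises succinate (chr13:74322254-74350280, protein-coding), was at 298, 266 and 252 CPM in CML against 348, 329 and 310.1 CPM in WT. The groups did not overlap, and the log2 fold change was -0.27 ± 0.11, adjusted p = 0.12. Sdhd and Sdhc, the membrane anchors, were at -0.30 and -0.10 and Sdhb, the iron-sulphur subunit, was at -0.06. These 3 were named after their values were seen.

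Complex III passes electrons from ubiquinol to cytochrome c. Of its 8 members 1 was lower in CML (12.5%, against 7.2% of all genes tested). All 8 estimates were negative, and the median was -0.26. Uqcrb, an accessory subunit (chr13:66900617-66905378, protein-coding), was at 16.3, 16.3 and 13.3 CPM in CML against 35.2, 29.04 and 16.9 CPM in WT. WT replicate 3 lay just above the highest CML library, while the other two WT libraries were well apart. The log2 fold change was -0.83 ± 0.24, adjusted p = 0.0405. Uqcrb kept its call in 9 of 16 alternatives and lost it when any library other than WT replicate 3 was left out. Uqcrfs1, the Rieske iron-sulphur protein and the member with the highest level per kilobase, stood at 86.4 ± 6.54 CPM per kb in CML libraries and 107 ± 11.04 CPM per kb in WT libraries and was not called (log2 fold change -0.31 ± 0.12, adjusted p = 0.0924).

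Complex IV, cytochrome c oxidase, hands the electrons to oxygen. Its nuclear subunits surround a core encoded in mitochondrial DNA, and several exist as isoforms from separate genes. Of 15 tested members 3 were lower in CML (20.0%, against 7.2% of all genes tested), and the median was -0.23. For 8 (53.3%) every CML library was below every WT library, against 16.5% of all genes tested. Cox7b, a nuclear accessory subunit (chrX:106015700-106022450, protein-coding), was at 68.4, 76.6 and 64.6 CPM in CML against 102, 108 and 101 CPM in WT. The groups were far apart relative to their spread, and the log2 fold change was -0.57 ± 0.11, adjusted p = 0.00369. Ndufa4, first counted as a complex I protein and since assigned to complex IV (chr6:11900292-11907497, protein-coding), was at 48.2, 45.5 and 40.1 CPM in CML against 72.7, 65.1 and 64.8 CPM in WT. It too had no overlap, with a log2 fold change of -0.60 ± 0.12, adjusted p = 0.00426. Across the alternatives the fold change stayed between -0.64 and -0.39 for Cox7b and between -0.66 and -0.42 for Ndufa4, always past the threshold. Cox6c, another accessory subunit (chr15:35925886-35938246, protein-coding), was at 29.8, 31.7 and 25.9 CPM in CML against 46.8, 40.3 and 35.00 CPM in WT. The groups did not overlap, the log2 fold change was -0.48 ± 0.14, adjusted p = 0.0309, and the call was lost in 6 alternatives, among them those without CML replicate 3 and without replicate 1 or 2 of WT.

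**Figure D3:**
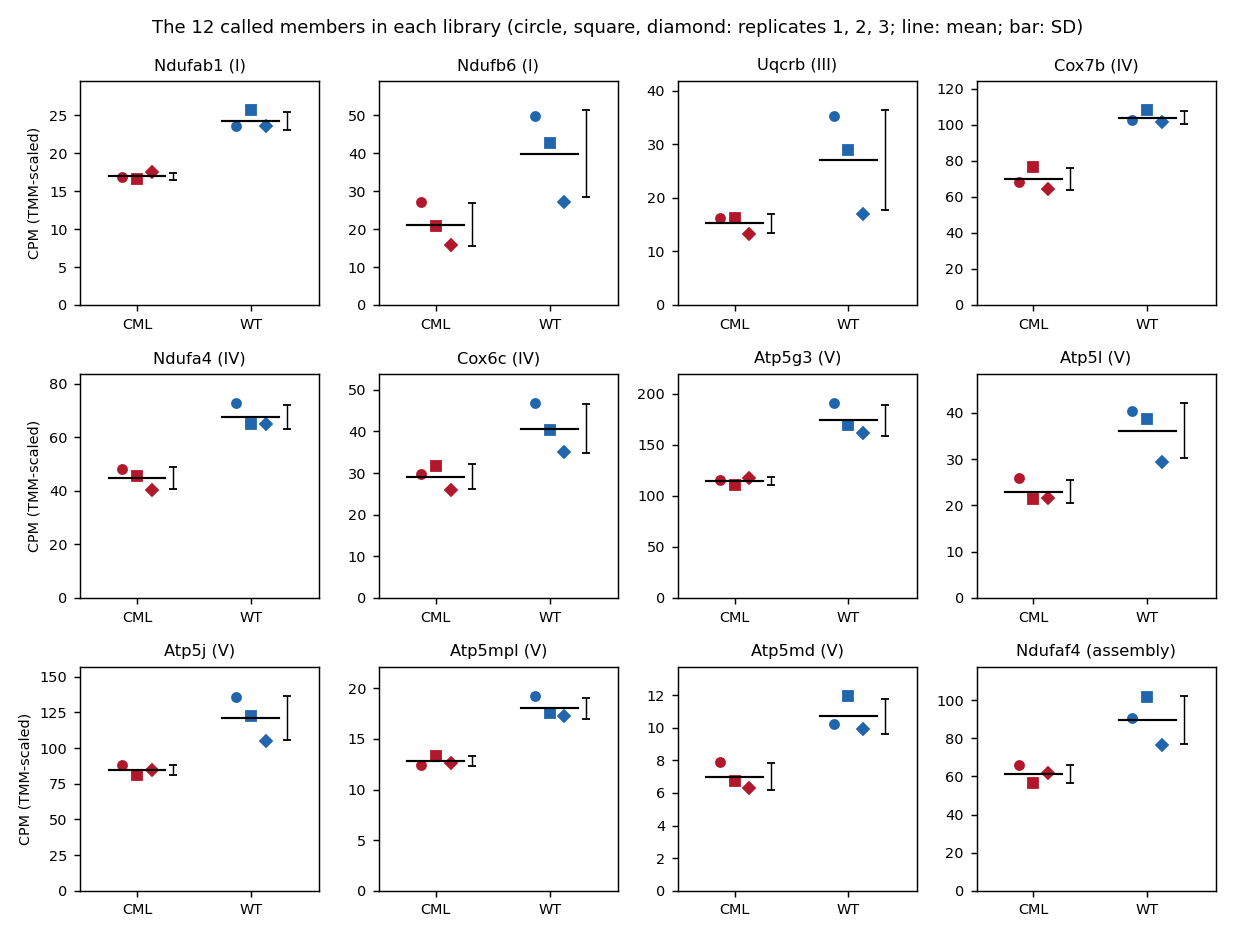
CPM of the 12 called members in each library, with CML in red and WT in blue, each axis starting at 0; horizontal lines are means and bars the SD over 3 libraries. Every CML value lies below every WT value in all 12 panels, with the narrowest gap in Ndufb6, where CML replicate 1 was at 27.1 CPM and WT replicate 3 at 27.3 CPM.

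In each isoform set of complex IV the widespread form had the higher mean level per kilobase in both groups. Cox4i1 had the highest level per kilobase of the complex, at 186 ± 15.7 CPM per kb in CML libraries and 203 ± 38.3 CPM per kb in WT libraries, and Cox4i2, the form known from lung and from low oxygen, was at 4.23 ± 2.65 CPM per kb in CML libraries and 9.92 ± 3.28 CPM per kb in WT libraries. Cox4i2 was at 5.27, 2.26 and 1.69 CPM in CML against 5.79, 5.87 and 9.96 CPM in WT. The groups did not overlap but the spread was wide, and it was not called (log2 fold change -1.22 ± 0.41, adjusted p = 0.0712), although 5 of 16 alternatives called it lower. Cox4i1 was not called either (log2 fold change -0.13 ± 0.14, adjusted p = 0.582), and its sign turned to 0.03 without WT replicate 3.

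Cox6a1, the widespread form of subunit VIa, was at 19.2 ± 3.71 CPM per kb in CML libraries and 28.97 ± 8.92 CPM per kb in WT libraries, and Cox6a2, the heart and muscle form, at 7.81 ± 2.19 CPM per kb in CML libraries and 5.65 ± 1.55 CPM per kb in WT libraries. Their log2 fold changes were -0.60 ± 0.22, adjusted p = 0.0871 and 0.47 ± 0.28, adjusted p = 0.272, so neither was called, and the difference between these opposite signs was not tested. Cox6b1 was at 39.5 ± 3.42 CPM per kb in CML libraries and 41.2 ± 6.34 CPM per kb in WT libraries and its testis form Cox6b2 at 2.61 ± 0.534 CPM per kb in CML libraries and 2.26 ± 0.483 CPM per kb in WT libraries, with log2 fold changes of -0.06 ± 0.15, adjusted p = 0.816 and 0.22 ± 0.35, adjusted p = 0.722. Cox7a2 was at 82.7 ± 8.92 CPM per kb in CML libraries and 105 ± 14.1 CPM per kb in WT libraries and was not called (log2 fold change -0.34 ± 0.13, adjusted p = 0.0969), while the muscle form Cox7a1 had 3, 4 and 2 counts in CML and 0, 4 and 1 counts in WT, too few to be tested. Cox8a was at 98.2 ± 11.6 CPM per kb in CML libraries and 111 ± 13.99 CPM per kb in WT libraries (log2 fold change -0.17 ± 0.13, adjusted p = 0.408), and Cox8b and Cox7b2 had 0 counts in all 6 libraries.

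**Figure D4:**
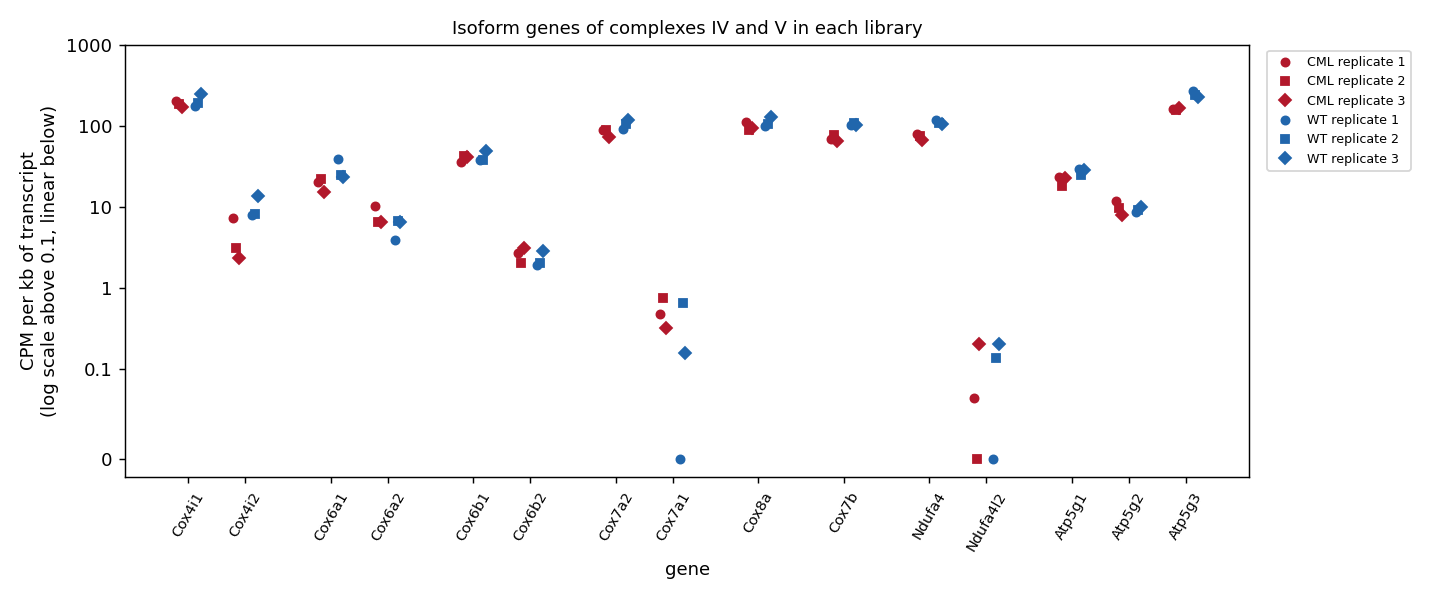
Level per kilobase of transcript of isoform genes of complexes IV and V in each library, CML in red and WT in blue, on a log scale above 0.1 and a linear one below. In each set of complex IV the widespread form has the higher mean in both groups, and the groups are apart in Cox7b, Ndufa4 and Atp5g3, called lower in every fit.

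Complex V makes ATP with a membrane rotor, turned by protons, and a catalytic head. It held the largest number of calls, 5 of 17 tested members (29.4%, against 7.2% of all genes tested), with a median log2 fold change of -0.32. For 11 (64.7%) every CML library was below every WT library, against 16.5% of all genes tested. The number called was 3 without CML replicate 2, CML replicate 3 or WT replicate 1 and 1 without WT replicate 2. Whether the share differs between complexes was not tested. Atp5g3 encodes the c subunit that forms the rotor ring (chr2:73908447-73911326, protein-coding) and was at 116, 110.5 and 118 CPM in CML against 191, 170.0 and 162 CPM in WT. The CML libraries lay close together and all below the WT libraries, and the log2 fold change was -0.60 ± 0.11, adjusted p = 0.0026, the lowest adjusted p of any member. It stayed between -0.66 and -0.50 and past the threshold in all 16 alternatives.

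The same mature c subunit is also made from Atp5g1 and Atp5g2. Per kilobase, Atp5g3 was at 161 ± 5.47 CPM per kb in CML libraries and 244 ± 21.01 CPM per kb in WT libraries, Atp5g1 at 21.3 ± 2.85 CPM per kb in CML libraries and 27.2 ± 2.35 CPM per kb in WT libraries and Atp5g2 at 9.79 ± 2.00 CPM per kb in CML libraries and 9.19 ± 0.762 CPM per kb in WT libraries, so Atp5g3 had the highest level of the 3 in both groups. Atp5g1 and Atp5g2 were not called, with log2 fold changes of -0.35 ± 0.16, adjusted p = 0.149 and 0.09 ± 0.24, adjusted p = 0.833, and the sign of Atp5g2 turned to -0.07 without CML replicate 1.

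Atp5l, subunit g of the membrane part (chr9:44912557-44920742, protein-coding), was at 25.9, 21.4 and 21.5 CPM in CML against 40.5, 38.6 and 29.4 CPM in WT. Atp5j, coupling factor F6 of the stalk (chr16:84827866-84835625, protein-coding), was at 88.1, 81.2 and 84.4 CPM in CML against 136, 122 and 105 CPM in WT. In both genes the lowest WT library was replicate 3 and still lay above every CML library. The log2 fold changes were -0.66 ± 0.15, adjusted p = 0.0091 for Atp5l and -0.52 ± 0.12, adjusted p = 0.0102 for Atp5j, and each lost its call in 1 alternative, without WT replicate 2, at adjusted p = 0.0547 and 0.0513. Atp5mpl, a small proteolipid that purifies with the enzyme (chr12:111961375-111966977, protein-coding), was at 12.4, 13.3 and 12.6 CPM in CML against 19.2, 17.6 and 17.3 CPM in WT, with no overlap and a log2 fold change of -0.49 ± 0.14, adjusted p = 0.0315. Atp5md, also a small membrane protein of the complex (chr19:47083464-47090647, protein-coding), completes the 5 and was named after its values were seen. It was at 7.91, 6.71 and 6.32 CPM in CML against 10.2, 11.9 and 9.90 CPM in WT, again with no overlap (log2 fold change -0.61 ± 0.18, adjusted p = 0.0336). The call was kept in 8 of 16 alternatives for Atp5mpl and in 9 for Atp5md, and both lost it when replicate 2 or 3 of CML or replicate 1 or 2 of WT was left out, as Atp5mpl did without CML replicate 1.

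Atp5b, the catalytic beta subunit, had the highest level per kilobase of all members, 402 ± 20.6 CPM per kb in CML libraries and 468 ± 46.04 CPM per kb in WT libraries. It was at 806, 728 and 775 CPM in CML against 832, 861 and 997 CPM in WT. The groups did not overlap, but the difference was small and was not called (log2 fold change -0.22 ± 0.12, adjusted p = 0.248). Atp5a1, the alpha subunit, named after its values were seen, was at -0.28. Both were called lower when trends with transcript length and GC content were removed, Atp5b at a log2 fold change of -0.27 (adjusted p = 0.0363, edgeR) and Atp5a1 at -0.32 (adjusted p = 0.0159).

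Among the 10 assembly and accessory genes, 9 were tested, 1 was lower in CML (11.1%, against 7.2% of all genes tested) and the median was -0.24. The median was -0.13 without CML replicate 2, -0.15 without WT replicate 1, 2 or 3 and -0.12 with length and GC trends removed. Ndufaf4, an assembly factor of complex I (chr4:24898083-24905001, protein-coding), was at 66.1, 56.7 and 61.7 CPM in CML against 90.7, 101 and 76.5 CPM in WT. The groups did not overlap, the log2 fold change was -0.54 ± 0.13, adjusted p = 0.0113, and the call was kept in 13 of 16 alternatives, and lost among others without CML replicate 2 or WT replicate 2. Cox7a2l, which links complexes III and IV into supercomplexes, was at 209.7, 196 and 179 CPM in CML against 154, 188 and 209 CPM in WT. The groups overlapped, with a log2 fold change of 0.09 ± 0.13, adjusted p = 0.694 that turned to -0.03 without WT replicate 1. Ndufa4l2, a relative of Ndufa4 induced by low oxygen, had at most 3 counts in any library.

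The called members had transcripts poor in GC. Their median GC content was 44.7%, against 52.2% for the tested members that were not called and 49.35% for all genes tested, and their median transcript length was 634.5 bases, against 781 and 2412 bases. Across the 91 members, which share libraries and base composition and are not independent, the log2 fold change had a Spearman coefficient of 0.37 with GC content, and across all tested genes one of 0.30. With the members split into 3 sets by GC content, 10 of 31 in the lowest set were called lower, with a median of -0.32, against 1 of 30 in the middle and 1 of 30 in the highest set, with medians of -0.16 and -0.13.

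After trends with length and GC content were removed from each library, the coefficient over the members was 0.10 and the medians of these sets, lowest first, were -0.24, -0.14 and -0.19. That fit also called 12 members lower, 7 of them shared with the 12 above, and 72 of 91 estimates were below 0, with a median of -0.19. It lost Ndufb6, Uqcrb, Cox6c, Atp5md and Atp5mpl and gained Atp5a1, Atp5b, Cox4i2, Ndufs7 and Uqcrc1. The values for the 3 members called in every fit were -0.39 for Cox7b, -0.42 for Ndufa4 and -0.53 for Atp5g3.

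**Figure D5:**
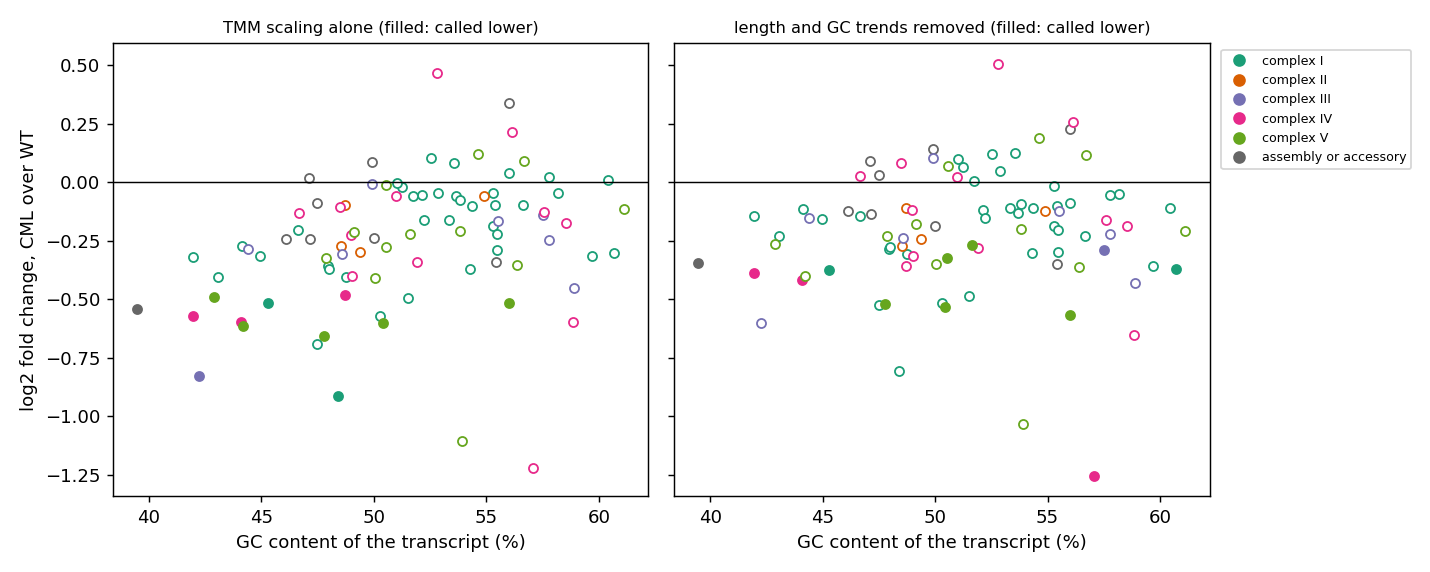
Log2 fold change of each tested member, CML over WT, against the GC content of its transcript, with TMM scaling alone at the left and with length and GC trends removed at the right; colours mark the complexes and filled points the members called lower. At the left 10 of the 12 called members lie in the lowest of 3 sets by GC content, and at the right the 12 called members spread over the range.

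Several members have near-copies in the genome, and how reads shared between copies were divided is not given in the sources used here. For 29 members the count of each of the 6 libraries was not a whole number within a tolerance of 0.02, so these values hold estimated shares of reads, and 9 of the 12 called members were among them. The other 3 called members were Ndufaf4 and Atp5mpl, whole in all 6 libraries, and Atp5g3, whole in 5 of them. Of the 14 rows with -ps names 8 were tested and none was called by edgeR. Despite the names, the annotation types Cox5b-ps as protein-coding and Ndufb1-ps as a noncoding RNA. In 1 alternative these rows and the 4 processed pseudogene members (Ndufa11b, Ndufb4c, Ndufs6b and Cox6c2) were added to their parent genes. Ndufb1-ps was not added, because the table has no row for its parent. The same 12 members were then called lower.

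Genes that work with the complexes were compared from lists. Of 14 tested carriers and subunits outside the symbol patterns 2 were lower in CML (14.3%) and none higher, with a median of -0.24. Over all genes tested 7.2% were lower and 10.2% higher. Cycs, cytochrome c itself, was at 61.95, 60.4 and 44.8 CPM in CML against 83.5, 101 and 72.6 CPM in WT, with no overlap and a log2 fold change of -0.62 ± 0.15, adjusted p = 0.0156, lost without CML replicate 3 or WT replicate 2. Slc25a3, the carrier that brings phosphate to complex V, was at 503, 549.6 and 521 CPM in CML against 684, 729.7 and 697 CPM in WT. The groups were well apart, with a log2 fold change of -0.42 ± 0.11, adjusted p = 0.0211, although the call was lost in 5 of 16 alternatives, among them those without any single CML library or without WT replicate 2.

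Of 38 assembly factors 2 were lower (5.26%), a share near the 7.2% of all genes tested, and the median was -0.09. They were Cox20, a chaperone in the assembly of complex IV, at 15.1, 9.12 and 12.8 CPM in CML against 26.2, 28.7 and 17.8 CPM in WT (log2 fold change -0.97 ± 0.22, adjusted p = 0.0101), and Tmem70, an assembly factor of complex V, at 114, 91.6 and 90.4 CPM in CML against 137, 142 and 120.2 CPM in WT (log2 fold change -0.43 ± 0.13, adjusted p = 0.033). Neither overlapped between the groups. Cox20 was called in all 16 alternatives and Tmem70 in 10 of them, not without replicate 2 or 3 of CML or replicate 1 or 2 of WT.

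Of 17 tested regulators and mitochondrial genome maintenance genes 1 was lower (5.88%), a share near the 7.2% of all genes tested. It was Ssbp1, which binds single-stranded mitochondrial DNA, at 46.01, 44.4 and 44.3 CPM in CML against 66.01, 60.9 and 52.9 CPM in WT (log2 fold change -0.42 ± 0.12, adjusted p = 0.0305). The groups did not overlap, but the call was kept in 9 of 16 alternatives, not without replicate 2 or 3 of CML or replicate 1 or 2 of WT. The transcription factor genes Nrf1 and Gabpa and the mitochondrial factor gene Tfam, named after their values were seen, were not called and were at -0.02, -0.16 and -0.26. Of 12 tested genes of ubiquinone synthesis 1 was lower (8.33%), again near the 7.2% of all genes tested. It was Pdss1, which makes the side chain of ubiquinone, at 24.8, 23.7 and 27.2 CPM in CML against 40.8, 39.8 and 36.9 CPM in WT. It had no overlap, with a log2 fold change of -0.63 ± 0.12, adjusted p = 0.00316, and was called in all 16 alternatives. No symbol of the table starts with mt-, so the subunits encoded in mitochondrial DNA were not analysed here.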

How the data were processed

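RNA of 3 CML and 3 WT libraries was isolated with the RNeasy Plus mini kit and made into Nextera XT libraries, per the labels' protocols. The table deposited by the authors holds estimated counts, not scaled to library size and partly not whole. The submitters' processing notes list the tools STAR 2.7.3a and Partek 8.0 and the build mm10. Which annotation and strand setting were used, and how shared reads were divided, is not given in the sources used here, so values of overlapping or antisense genes and near-copies are uncertain.

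Groups and replicate numbers came from the sample titles. Counts were rounded and genes with few counts were removed with filterByExpr (minimum count 10), which left 16221 genes. The test was edgeR's quasi-likelihood F test (edgeR 4.0.16, R 4.3.3) with TMM scaling, group as the only term, two-sided. Calls rest on p-values adjusted over all tested genes by Benjamini-Hochberg, with 0.05 as the threshold. Each SE is the size of the log2 fold change divided by the square root of F. Coordinates, transcript lengths and GC content came from GENCODE M21 on GRCm38, the assembly of mm10, from 1 principal transcript per gene, and levels per kilobase are CPM divided by that length. The symbols Atp5md and Atp5pb were matched through RefSeq synonyms. GC and length values were found for 98.9% of tested genes.

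Other scalings, filters, tests and trend corrections, a replicate block and the removal of each library made 15 alternatives, and 1 more (copies added to the parent gene) was chosen after seeing the data. Members, gene lists and tests were chosen with earlier results of these data known. The genes named were, in each complex, the called members lowest in adjusted p (4 at most), the called member with the largest change and the member with the highest level per length, all isoform sets, the called assembly genes and up to 3 called genes of each pathway list. Any other gene is said to be named after its values were seen.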

Additional observations from a re-analysis of the deposited data

How the results depend on the processing

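No alternative called a member higher, and between 3 and 18 members were called lower when each library was left out in turn. The same values ran from 3 to 17 for the subunits alone, from 0 to 8 for complex I, 0 to 1 for complex II, 0 to 1 for complex III, 1 to 6 for complex V and 0 to 1 for the assembly or accessory genes. Over all genes they ran from 455 to 2101 for lower and from 1011 to 2021 for higher calls. With libraries scaled to their totals 7 subunits were lower, 1 of them in complex I and 3 in complex V, and 732 genes were lower over all. The limma-voom test called 0 members of complex III. Same-numbered CML and WT libraries did not deviate together, with correlations of -0.01, -0.05 and 0.01. Such values cannot show whether libraries of equal number were handled as pairs, which the labels do not say. The fit with the replicate number as a block called 15 members lower, 12 of them shared with the fit without it, and 4 in complex I. With the replicate block and length and GC trends removed together, 12 members were lower, 1 in complex II, 2 in complex III and 0 among the assembly or accessory genes. DESeq2's Wald test called 15 and the fit without a count filter 14. Of the 91 tested members 79 had estimates below 0 in the fit used for the calls. The number was 62 without WT replicate 3, 65 with library totals and 72 with length and GC trends removed. Sign changes were followed gene by gene for the genes chosen by the naming rule, not for every member. Those found were all of values that were not called. With libraries left out in turn, Atp5g2 ran from -0.073 to 0.232, Cox4i1 from -0.234 to 0.0346, Cox7a2l from -0.0301 to 0.186 and Cox6b1 from -0.135 to 0.0698. Cox6b1 was also at 0.0326 with library totals, 0.0210 with trends removed and 0.0185 with the block and trends. The cause of these changes was not tested. With 3 libraries a group, small differences of this size may be missed, and of the tested members Atp5k, with about 1 CPM, had the widest SE (0.42).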
